A study of Mus musculus with 6 samples.

Results

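The leukocyte adhesion molecules are 10 genes, chosen by name as selectins and immunoglobulin-type adhesion genes, out of 54532 in the count table. They are Sele, Selp, Vcam1, Icam1, Icam2, Madcam1, Alcam, Mcam, Cd47 and F11r. RNA was sequenced in bulk from aortic cells of wild-type male mice, named endothelial by the labels, in 3 cultures exposed to lipopolysaccharide for 8 h (LPS, 500 ng/mL) and 3 kept as long in the starvation medium without it (Vehicle). LPS is an outer membrane component of Gram-negative bacteria. Each of 3 cell isolations supplied a Vehicle and an LPS culture, and the labels do not say how many animals an isolation pooled. Enough reads were counted for a test in 8 of the 10 members, and Icam2 and Madcam1 fell under the filter on low counts.

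White blood cells leave the blood in steps. Selectins on the vessel wall catch passing cells by their sugars and let them roll, immunoglobulin-type molecules such as VCAM-1 and ICAM-1 then hold them through integrins, and junction molecules guide them across. In resting endothelium several of these genes are low, and inflammatory signals such as LPS are known to raise E-selectin, P-selectin (in mice), VCAM-1 and ICAM-1 through nuclear factor kappa B, a transcription factor.

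Of the 14 endothelial markers examined, 3 averaged above 1 CPM over the 6 libraries (CPM are counts scaled to a common library size by the TMM method). These were Flt1 (59.97 ± 4.08 in Vehicle and 52.0 ± 3.95 CPM under LPS, SD, n = 3 each), Erg and Egfl7. The defining endothelial genes Pecam1 and Cdh5 averaged 0.482 and 0.0361 CPM in Vehicle and 0.280 and 0.0315 CPM under LPS, and Kdr, Tek, Tie1, Vwf, Emcn, Nos3, Robo4 and Cldn5 also averaged under 0.5 CPM in each group. The 14 markers summed to between 69.4 and 74.9 CPM in Vehicle and between 61.6 and 67.0 CPM under LPS. All 6 pericyte markers averaged above 1 CPM, with sums of 1866 to 1981 CPM in Vehicle and 1358 to 1635 CPM under LPS, and all 7 fibroblast markers did, with sums of 6222 to 7430 and 3959 to 5519.7 CPM. Of these, edgeR called 0 pericyte markers higher and 3 lower, and 2 fibroblast markers higher and 3 lower, among them Col1a1 (2920.3 ± 176 and 2004 ± 348 CPM). Over all tested genes, 24.9% were called higher and 24.4% lower. With an offset for transcript length in edgeR, Notch3 and Pdgfra were the only markers of these lists still lower, and Col1a1 had a log2 ratio of −0.10 (adjusted p = 0.412). The 7 smooth muscle markers summed to 415 to 433 CPM in Vehicle and 464 to 583 CPM under LPS, without overlap, most of it Acta2 and Smtn. Only 1 of them, Smtn, was called higher (0.4981 on the log2 scale, edgeR adjusted p = 0.00569, and 0.53 with the offset). Acta2 was not called (0.18, edgeR adjusted p = 0.194) and came to −0.061 with the offset. Lmod1 was not called at −0.39, and Myh11 and Des averaged under 0.5 CPM in each group. The 5 mesothelial markers summed to 25.4 to 31.7 CPM in Vehicle and 43.9 to 89.4 CPM under LPS, most of it Krt19, which was called higher. The part of these shifts in the adhesion results was not tested. The 5 platelet markers, listed because platelets also carry P-selectin, summed to at most 4.03 CPM in any library, and Pf4 had 0 counts. The endothelial label was therefore not borne out by its defining markers, and the cells are called the cultures here. In bulk RNA, fewer cells of a type and less RNA per cell cannot be told apart. Total counts ranged from 16509197 to 25082714 per library, and 3 counts, the level that a count of 0 allows, stood for 0.117 to 0.188 CPM, counting error only.

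**Figure D1:**
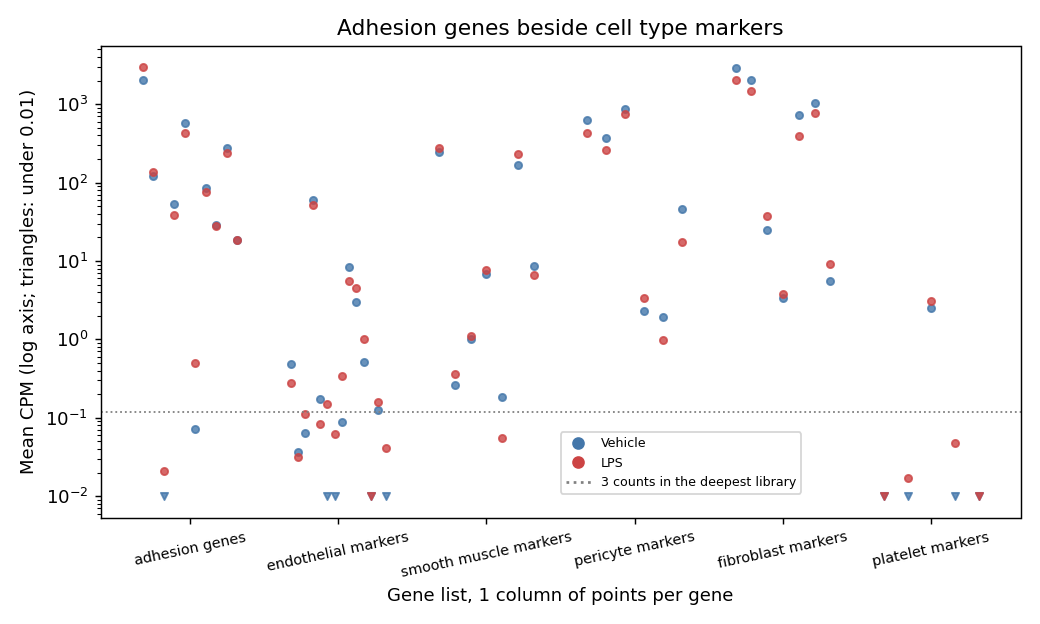
Mean CPM on a log axis of the 10 adhesion genes and of 5 marker lists, 1 column of points per gene, blue for Vehicle and red for LPS (n = 3 each), with triangles for means under 0.01. Most endothelial markers lie near or under the dotted line of 3 counts in the deepest library (0.117 CPM), whereas 8 adhesion genes lie far above it.

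The promoters of 4 members are shown. They are those of both selectins, which were called lower, and those of Icam1 and Madcam1. Sele, Icam1 and Madcam1 hold kappa B letters. Promoter entries existed for 8 of the 10 members in the RefSeq table (GRCm38.p6), and Vcam1 and Icam2 had none. Each run covers 250 bases before and 50 bases after the annotated start, 5′ to 3′ on the gene's own strand, and capitals mark every motif match on either strand.
Sele (chr1:164047984-164048283, plus strand): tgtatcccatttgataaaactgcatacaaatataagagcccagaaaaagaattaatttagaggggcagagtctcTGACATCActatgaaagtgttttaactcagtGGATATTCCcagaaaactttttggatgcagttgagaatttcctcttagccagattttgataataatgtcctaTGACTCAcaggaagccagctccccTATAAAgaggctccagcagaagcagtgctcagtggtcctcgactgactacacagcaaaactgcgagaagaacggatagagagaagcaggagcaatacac
Selp (chr1:164115014-164115313, plus strand): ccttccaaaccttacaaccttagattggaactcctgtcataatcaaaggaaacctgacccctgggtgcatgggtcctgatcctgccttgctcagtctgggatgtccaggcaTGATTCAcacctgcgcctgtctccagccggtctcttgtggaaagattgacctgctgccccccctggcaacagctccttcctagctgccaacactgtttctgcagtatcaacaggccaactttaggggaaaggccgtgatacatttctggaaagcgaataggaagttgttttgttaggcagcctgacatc
Icam1 (chr9:21015690-21015989, plus strand): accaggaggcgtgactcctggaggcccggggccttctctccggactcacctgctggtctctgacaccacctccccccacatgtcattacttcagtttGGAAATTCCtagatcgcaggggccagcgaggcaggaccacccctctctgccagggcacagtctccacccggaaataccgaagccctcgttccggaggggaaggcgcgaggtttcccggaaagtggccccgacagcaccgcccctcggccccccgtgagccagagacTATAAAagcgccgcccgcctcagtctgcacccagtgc
Madcam1 (chr10:79664309-79664608, plus strand): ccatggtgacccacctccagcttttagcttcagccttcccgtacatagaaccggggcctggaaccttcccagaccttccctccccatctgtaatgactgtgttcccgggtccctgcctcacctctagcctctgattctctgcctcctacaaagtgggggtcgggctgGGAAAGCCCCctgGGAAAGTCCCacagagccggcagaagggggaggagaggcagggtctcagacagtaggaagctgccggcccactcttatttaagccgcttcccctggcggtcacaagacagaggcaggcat

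The Sele window held GGATATTCC at −145 to −137 and TGACATCA at −176 to −169 from the start, letters known from human SELE as a kappa B site and as a site of the ATF family. It also held the AP-1 motif TGANTCA at −73 to −67 and TATAAA at −49 to −44. The Icam1 window held GGAAATTCC, the letters of the kappa B site known from human ICAM1, at −153 to −145, and TATAAA at 14 to 19 after the RefSeq start. In the count table Icam1 starts later, at 21015985, near the end of this window at 21015989. That TATAAA lies before the later start, and both positions depend on the start used. In Madcam1, a pair of matches to the general kappa B consensus lay on the opposite strand at −83 to −74 and −70 to −61. The Selp window held a TGANTCA match at −139 to −133 and none of the other motifs. F11r, not shown, also held TGANTCA, at −109 to −103, and the entries of Mcam, Cd47 and Alcam held no match. Among 32851 promoters of the same length, 4.51% held the kappa B consensus, 0.317% GGAAATTCC, 0.134% GGATATTCC, 3.62% TGACATCA, 7.81% TGANTCA and 13.6% TATAAA. Different motifs did not overlap in these 4 windows, and TGANTCA reads alike on both strands. A match is a description of the letters only.

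Members were compared with edgeR's quasi-likelihood test across all 14508 genes with enough counts, and a gene was called when its Benjamini-Hochberg adjusted p was below 0.05. Vcam1 was called higher under LPS, Sele, Selp and Cd47 were called lower (Cd47 changed sign with an offset for length), and Icam1, Alcam, Mcam and F11r were not called. The rate over all tested genes was 24.9% called higher and 24.4% called lower, or 49.3% in either direction, and 4 of the 8 tested members were called. Their share is thus close to that of the whole table. With the isolation as a replicate block 1 member was higher and 2 were lower, beside 25.5% and 25.5% of all tested genes, or 51.0% in all. Left-out libraries changed the number of members called lower, which was 0 without Vehicle 1, Vehicle 2 or LPS 2, 1 without Vehicle 3 or LPS 3, and 3 without LPS 1. The median log2 fold change was −0.11 over the tested members and −0.0031 over all tested genes. In 4 of the 8 tested members the Vehicle and LPS libraries did not overlap, against 61.9% of all tested genes (31.1% with LPS higher and 30.8% with LPS lower).

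**Figure D2:**
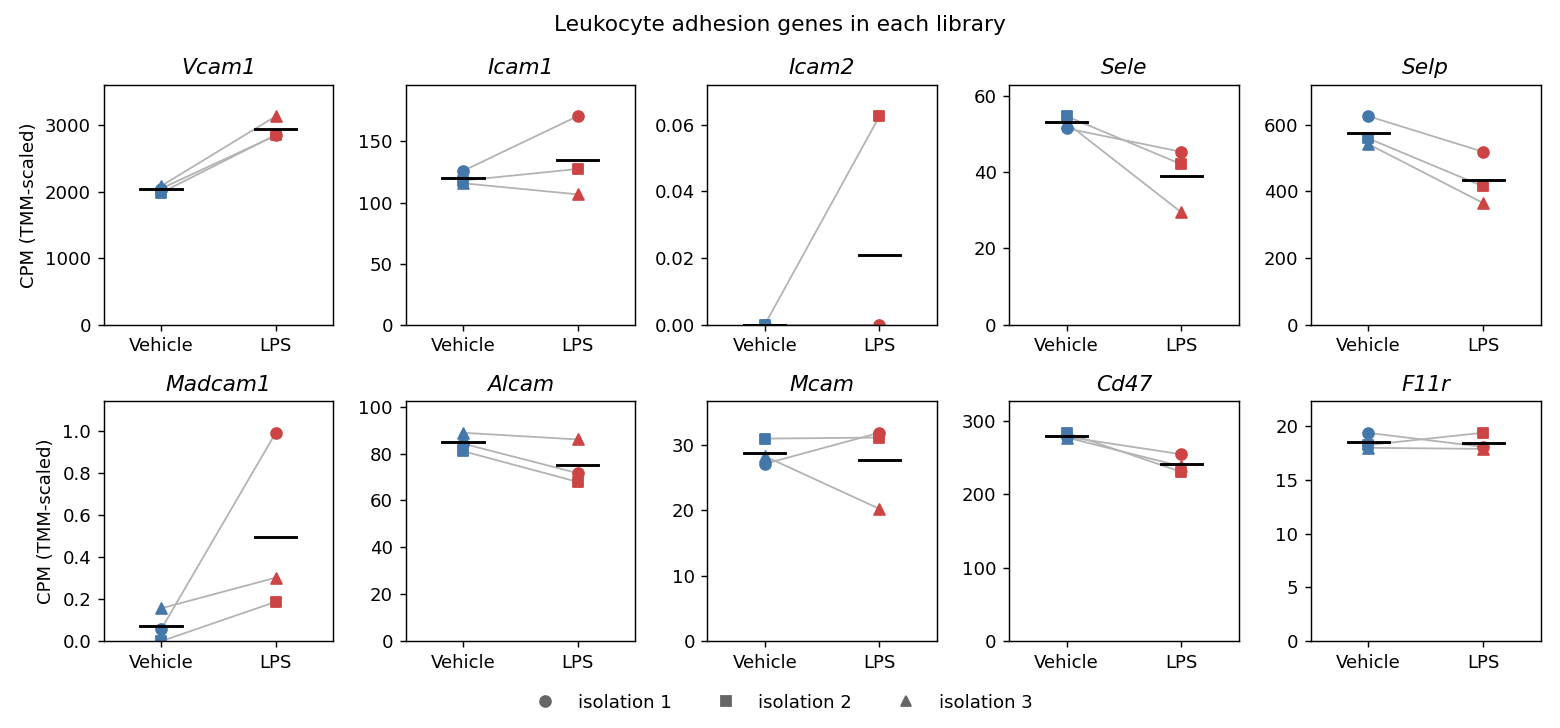
CPM of each adhesion gene in the 3 Vehicle and 3 LPS libraries, with lines joining the cultures of 1 isolation and black bars at the group means; every axis starts at 0. Vcam1 was higher in each LPS library than in any Vehicle library, and Sele, Selp and Cd47 were lower (Cd47 not with the length offset). Icam2 and Madcam1 stayed under 1 CPM.

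The selectins are the capture molecules. Sele encodes E-selectin, an inducible selectin of endothelium (ENSMUSG00000026582, GRCm38 chromosome 1, 164048234 to 164057677). Its level was 51.5, 54.7 and 53.0 CPM in Vehicle 1, 2 and 3 and 45.4, 42.1 and 29.5 CPM in LPS 1, 2 and 3. Every LPS library lay under every Vehicle library, and LPS 3 lay lowest, well apart from the other LPS libraries. The log2 fold change was −0.45 (SE 0.148, edgeR adjusted p = 0.0308), or 0.735 times the Vehicle level. That call depended on single libraries. With Vehicle 1, 2 or 3 left out, the adjusted p was 0.0714, 0.0976 or 0.0759, and with LPS 2 or 3 left out it was 0.0571 or 0.0531. When LPS 3 was left out the log2 fold change was −0.27.

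Selp encodes P-selectin, which endothelium and platelets keep in storage granules and which meets its ligand PSGL-1 on leukocytes (ENSMUSG00000026580, chromosome 1, 164115264 to 164150026). It stood at 626, 559 and 542 CPM in the Vehicle libraries and at 519, 415 and 365 CPM in the LPS libraries. The groups did not overlap, and LPS 1 lay closest to the Vehicle libraries. The log2 fold change was −0.41 (SE 0.131, edgeR adjusted p = 0.0262), or 0.753 times Vehicle. Leaving out Vehicle 1, Vehicle 2, LPS 2 or LPS 3 gave an adjusted p of 0.108, 0.0683, 0.101 or 0.0652. The ratio of Selp to Sele CPM was 10.2 to 12.2 in Vehicle and 9.86 to 12.4 under LPS, and these ranges overlapped. Reads of 2 opposite-strand genes that overlap Selp, Gm16587 and Gm16548, averaged 1.85 and 1.06 CPM in Vehicle and 0.789 and 1.49 CPM under LPS, a small part of the level of Selp.

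Vcam1 was the most abundant member and the only one of the 8 tested members called higher. It encodes VCAM-1, the counter-receptor of the leukocyte integrin alpha 4 beta 1 (ENSMUSG00000027962, chromosome 3, 116109949 to 116129688). Vehicle 1, 2 and 3 had 2045, 1982 and 2082 CPM, and LPS 1, 2 and 3 had 2842, 2850 and 3132 CPM. The lowest LPS library was far above the highest Vehicle library. The fold change was 1.44, or 0.53 on the log2 scale (SE 0.0944, edgeR adjusted p = 0.00206). Within isolations 1, 2 and 3 the log2 ratio of LPS to Vehicle was 0.48, 0.52 and 0.59. No single library ended the call. Leaving out both libraries of isolation 2 gave an adjusted p of 0.0923 at a log2 fold change of 0.53. That edgeR fit called 8 genes higher and 0 lower in the whole table, where 2587 and 2469 had an unadjusted p under 0.05. DESeq2 without isolation 2 called 1543 and 1259, Vcam1 among the former.

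Icam1 encodes ICAM-1, which binds the leukocyte integrins LFA-1 and Mac-1 (ENSMUSG00000037405, chromosome 9, 21015985 to 21028817). Its levels were 125.9, 118 and 116 CPM in Vehicle and 171, 127 and 107 CPM under LPS. LPS 1 was the highest of all 6 libraries and LPS 3 the lowest, so the groups overlapped. The log2 ratio within the isolations was 0.44, 0.11 and −0.12, and the fitted log2 fold change was 0.17 (SE 0.15, edgeR adjusted p = 0.367). Without LPS 1 the fitted value was −0.039 (adjusted p = 0.709), so its sign rested on that library. As the ratio of Vcam1 to Icam1 CPM, the libraries stood at 16.2 to 17.98 in Vehicle and at 16.7, 22.4 and 29.3 in LPS 1, 2 and 3. Only LPS 1 lay within the Vehicle range.

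Icam2 encodes ICAM-2, a ligand of LFA-1 that resting endothelium is known to carry (ENSMUSG00000001029, chromosome 11, 106377656 to 106388075). It had 0 counts in all 3 Vehicle libraries, LPS 1 and LPS 3, and 1 count in LPS 2. Over the 3 Vehicle libraries together, 0 counts allow a level of up to 0.0480 CPM.

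Madcam1 encodes the mucosal addressin MAdCAM-1, which binds the integrin alpha 4 beta 7 on gut-homing lymphocytes (ENSMUSG00000020310, chromosome 10, 79664559 to 79668537). It had 1, 0 and 4 counts in Vehicle 1, 2 and 3 and 21, 3 and 6 counts in LPS 1, 2 and 3. Most of its reads under LPS came from LPS 1, and its level there was 0.991 CPM. Over the summed libraries the ratio of LPS to Vehicle was 6.58 (exact 95% interval 2.53 to 21.7, counting error only). When the filter on low counts was dropped, edgeR gave an adjusted p of 0.0298. Adjusted p from that fit were on another scale than in the main edgeR fit. The vinculin gene Vcl had 2.9e-55 there against 0.00240, and Cd47 had 0.124 against 0.0499. Madcam1 therefore counts as not tested here, and its adjusted p is not comparable with the calls. Its integrin partner gene Itgb7, which encodes the beta 7 chain, was likewise rare, at 0.230 ± 0.0745 CPM in Vehicle and 0.938 ± 0.375 CPM under LPS (SD, n = 3 each; log2 fold change 1.97, edgeR adjusted p = 0.00899). The call of Itgb7 ended in edgeR without isolation 1 (adjusted p = 0.0686) and without isolation 2 (0.0770). With the replicate block it held without isolation 2 (0.0417).

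The remaining members work in adhesion of several cell types. Cd47 encodes a receptor of SIRP alpha and thrombospondin 1 that takes part in leukocyte transmigration (ENSMUSG00000055447, chromosome 16, 49800533 to 49915010). It had 278, 284 and 277 CPM in Vehicle and 254, 230.4 and 238 CPM under LPS. The Vehicle libraries lay close together and all LPS libraries lay under them. The fitted log2 ratio of −0.21 (SE 0.0808) just passed the threshold (edgeR adjusted p = 0.0499). It did not pass with the isolation as a replicate block (adjusted p = 0.0548) or with Vehicle 1, 2 or 3 (adjusted p = 0.121, 0.160, 0.114) or LPS 2 or 3 (0.204, 0.107) left out.

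Alcam encodes ALCAM, the ligand of CD6 on T cells (ENSMUSG00000022636, chromosome 16, 52248996 to 52454074). Its CPM were 84.2, 81.0 and 88.9 in Vehicle and 71.7, 67.9 and 86.0 under LPS. LPS 3 lay within the Vehicle range, and the other LPS libraries lay under it. The log2 fold change was −0.17 (SE 0.104, edgeR adjusted p = 0.197), and with LPS 3 left out it was −0.28 and called lower (adjusted p = 0.0422).

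Mcam encodes MCAM (CD146), an adhesion molecule of endothelium, pericytes and smooth muscle (ENSMUSG00000032135, chromosome 9, 44134469 to 44142727). It stood at 27.1, 30.9 and 28.2 CPM in Vehicle and 31.8, 31.1 and 20.2 CPM under LPS. LPS 3 was the lowest library and LPS 1 the highest. The log2 fold change was −0.054 (SE 0.165, edgeR adjusted p = 0.807), or 0.13 without LPS 3 (adjusted p = 0.381). F11r encodes the junctional adhesion molecule JAM-A, which can bind LFA-1 (ENSMUSG00000038235, chromosome 1, 171437535 to 171464603). All 6 libraries lay between 17.9 and 19.4 CPM, and the log2 fold change was −0.0069 (SE 0.108, edgeR adjusted p = 0.964). Its sign turned when Vehicle 1, LPS 1 or LPS 3 was left out (0.023, 0.0036 and 0.018).

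**Figure D3:**
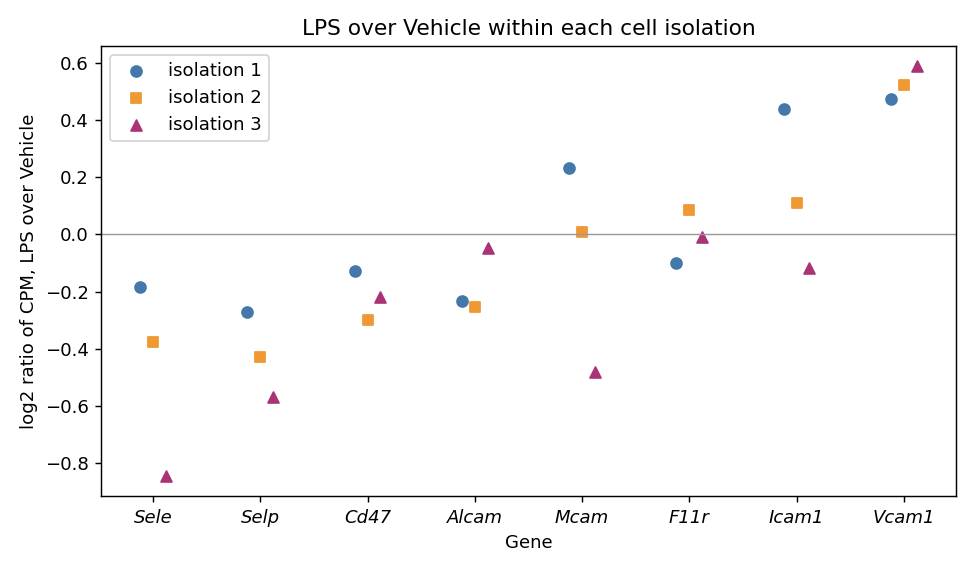
Log2 ratio of LPS to Vehicle CPM within isolations 1, 2 and 3 (circles, squares and triangles) for the 8 tested members, ordered by fitted fold change. Vcam1 lies above 0 and Sele, Selp, Cd47 and Alcam lie under 0 in every isolation, whereas Icam1, Mcam and F11r lie on both sides.

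The direction was thus the same in all 3 isolations for 5 of the 8 tested members and mixed for Icam1, Mcam and F11r. The share of all tested genes with a single direction was not computed. It is at least the 61.9% whose groups did not overlap, so this count is not particular to the members. Among the LPS libraries, LPS 3 had the lowest level of Sele, Selp, Icam1, Mcam and F11r, and the highest of Vcam1 and Alcam. A test for differences between isolations, with the group in the model, called none of the members (edgeR, 2 at an unadjusted p under 0.05; DESeq2 also called 0). Those 2 were Selp (adjusted p = 0.540) and Icam1 (adjusted p = 0.540), and only 0.00689% of all tested genes were called. The result of that test changed when Vehicle 1 was left out. Isolation 1 then held LPS 1 alone. Every fit without 1 library leaves an isolation with a single library, and only the fit without Vehicle 1 called members. These fits cannot tell that isolation from its library, and the cause of the change was not tested.

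Levels per length showed which molecule dominated. In RPKM (CPM divided by the deposited gene length in kilobases), Vcam1 stood at 229.6 ± 5.71 in Vehicle and 332 ± 18.6 under LPS, and Selp at 130.4 ± 10.04 and 98.1 ± 17.8 (SD, n = 3 each). Below them came Cd47 at 44.5 ± 0.559 and 38.4 ± 1.95, Icam1 at 27.5 ± 1.21 and 31.0 ± 7.49, and Sele at 18.2 ± 0.550 and 13.4 ± 2.88. Alcam, Mcam and F11r had means between 6.93 and 11.9 RPKM, and Madcam1 and Icam2 were under 0.5. Neighbours in this order did not overlap in Vehicle, apart from Madcam1 and Icam2. Under LPS, Cd47 overlapped with Icam1, Sele with Alcam, and Mcam with F11r.

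Vcam1 made up 47.0% to 49.5% of the members' summed RPKM in Vehicle and 57.2% to 66.2% under LPS, and Selp 25.9% to 28.9% and 15.5% to 20.99%. The ratio of Vcam1 to Selp CPM was 3.27 to 3.84 in Vehicle and 5.48, 6.86 and 8.58 in LPS 1, 2 and 3, without overlap. These per-length levels depend on the length used. The deposited length of Vcam1 is 8870 bases and its longest GENCODE transcript has 4088, which would place its Vehicle share at 60.0% to 62.5%; the order of the members stayed the same in Vehicle, and under LPS Icam1 and Cd47 changed places.

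Fold changes in these libraries fell with transcript length, which matters for how single members are read. Log2 CPM dropped by 0.193, 0.318 and 0.364 per doubling of length in LPS 1, 2 and 3 against the Vehicle mean. The tested genes were cut into 10 bins by the length of their longest transcript. Vcam1 rose although its bin had a median log2 fold change of −0.12. Sele and Selp fell while their bins had medians of 0.086 and −0.046. Cd47 and Alcam, with transcripts of 5250 and 6036 bases, shared a bin with a median of −0.43, below their own values.

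When transcript length entered the edgeR fit as an offset, the log2 fold change of Vcam1 was 0.69 (SE 0.0872, adjusted p = 0.00106), Sele −0.50 (SE 0.138, adjusted p = 0.0175) and Selp −0.38 (SE 0.113, adjusted p = 0.0253). These kept their calls. Cd47 changed sign to 0.15 (adjusted p = 0.122) and Alcam to 0.30 (adjusted p = 0.0893), and with the replicate block added Alcam was called higher (0.29, adjusted p = 0.0181). Icam1, Mcam and F11r stayed uncalled, at 0.051, −0.096 and −0.14. Under the offset 21.8% of all tested genes were called higher and 13.8% lower, or 35.5% in all, against 1 and 2 of the 8 tested members.

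**Figure D4:**
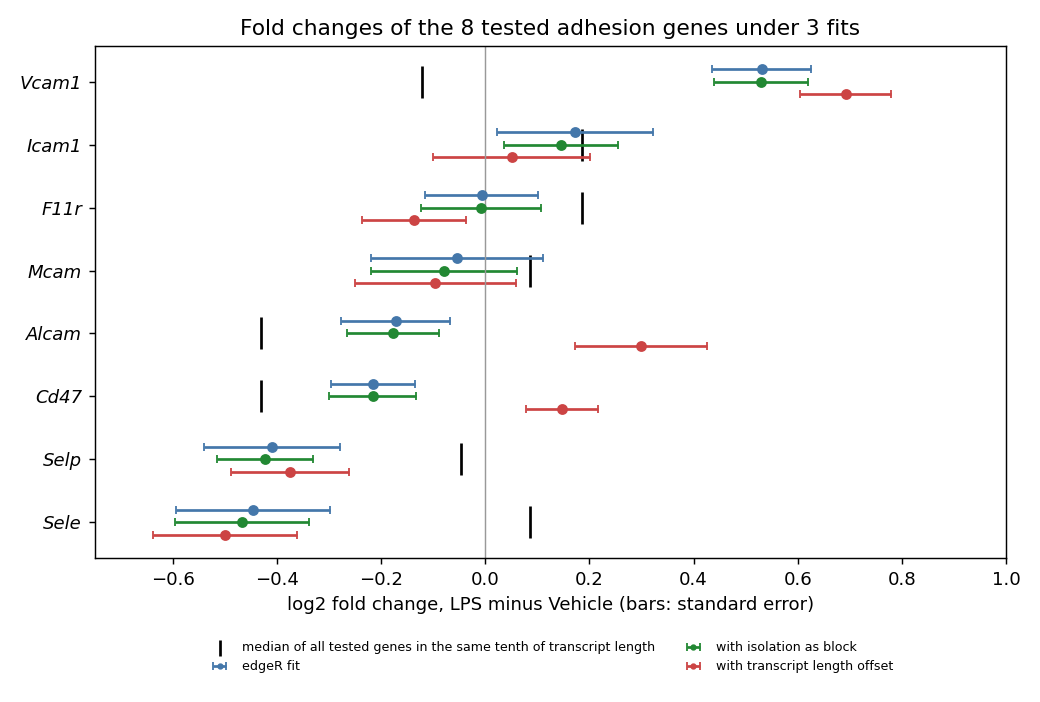
Log2 fold change of the 8 tested members with its standard error in the edgeR fit (blue), with the isolation as a block (green) and with the transcript length offset (red); black ticks mark the median of all tested genes in the same length bin. Vcam1, Selp and Sele keep their side of 0 in all 3 fits, and Cd47 and Alcam change side with the length offset.

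The genes that work with the adhesion molecules were followed in 6 lists of 67 genes, of which 56 were tested. Of these, 12 were called higher and 18 lower, beside 24.9% and 24.4% of all tested genes. The median log2 fold change of the 56 was −0.046. Once length entered the fit as an offset, 13 were higher and 13 lower, beside 21.8% and 13.8% of all tested genes. Without isolation 2, edgeR called none of these 56 genes (8 higher and 15 lower at an unadjusted p under 0.05; 4 and 9 called by DESeq2).

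Among counter-receptors and ligands, 8 of 13 genes were tested, 1 rose and 2 fell, or 2 and 3 with the length offset. Cd44, an E-selectin ligand of leukocytes, stood at 656 ± 55.7 and 799.6 ± 88.9 CPM without overlap. It missed the threshold (edgeR adjusted p = 0.0545), and passed as higher with the replicate block (0.0218) and with the offset (0.71 on the log2 scale, adjusted p = 0.00302). Glg1, which encodes E-selectin ligand 1 of mouse myeloid cells, fell from 459.6 ± 33.7 to 209.7 ± 72.9 CPM (SD, n = 3 each; log2 fold change −1.13, edgeR adjusted p = 0.00212), with a transcript of 7021 bases and a log2 fold change of −0.60 under the length offset (adjusted p = 0.00646). Itgb1, the integrin beta 1 chain, fell by 0.37 on the log2 scale (adjusted p = 0.0130), a call that ended without Vehicle 2 (0.0646) or LPS 2 (0.0624). Thbs1, the CD47 ligand thrombospondin 1, had 3773 ± 414 and 2914 ± 557 CPM and missed the threshold (adjusted p = 0.0633). It passed, as lower, with the replicate block (0.0449), in DESeq2 (0.0327), with library sizes alone (0.0478) and without LPS 1 (0.000543). It also passed with no filter (0.00154), in the fit whose adjusted p are not comparable with the main fit. The length offset turned Thbs1 to 0.057 on the log2 scale. The CD47 receptor gene Sirpa had 67.9 ± 1.28 and 63.6 ± 6.50 CPM (adjusted p = 0.450), and the leukocyte integrin genes Itgal and Itgam had 0 counts in 5 of 6 libraries.

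Of 10 transmigration and junction genes, 8 were tested, 4 rose and 1 fell, or 2 and 1 with the length offset. Of the higher genes, Cd9 (0.44 on the log2 scale) went to 0.0042 with the offset (edgeR adjusted p = 0.969) and Nectin2 (0.28) to 0.19 (adjusted p = 0.1199). The JAM-A relatives moved in opposite directions. Jam2 fell from 166 ± 7.17 to 112 ± 9.10 CPM (−0.56 on the log2 scale, SE 0.0893, edgeR adjusted p = 0.00150), and Jam3 rose from 26.2 ± 1.68 to 43.0 ± 8.95 CPM (0.71, SE 0.147, adjusted p = 0.00368). Both calls held with the length offset (−0.35 and 0.44, adjusted p = 0.00749 and 0.0144). Pvr, which encodes a nectin-like receptor, rose by 0.46 on the log2 scale (adjusted p = 0.00301). The tetraspanin gene Cd151 stood at 248.8 ± 11.1 and 283 ± 13.8 CPM without a call (adjusted p = 0.0895), and was called higher without LPS 1 (0.0162).

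Of 11 selectin ligand carriers and glycan enzymes, 8 were tested, 1 rose and 2 fell, or 2 and 2 with the length offset. Gcnt1, which builds the core 2 branch of selectin ligands, fell from 67.6 ± 9.24 to 31.8 ± 6.72 CPM (log2 fold change −1.09, edgeR adjusted p = 0.00144), and the galactosyltransferase gene B4galt1 by 0.58 on the log2 scale (adjusted p = 0.00147). The sialyltransferase gene St3gal4 was called higher at 0.31 (adjusted p = 0.0280), a call that ended under the length offset (0.504) and without Vehicle 1 (0.0521), Vehicle 2 (0.138), Vehicle 3 (0.0659), LPS 2 (0.0530) or LPS 3 (0.0820). Podxl, a sialomucin, had 36.0 ± 3.40 and 33.9 ± 1.58 CPM (adjusted p = 0.505), and with the length offset it was called higher at 0.29 (adjusted p = 0.0356).

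The cytoskeletal anchors, which tie adhesion molecules to actin, had 12 of 13 genes tested, 2 higher and 6 lower, or 2 and 3 with the length offset. Vcl, vinculin, fell from 291 ± 34.1 to 82.4 ± 48.8 CPM (−1.82 on the log2 scale, SE 0.338, edgeR adjusted p = 0.00240; −1.49 with the length offset, and −2.41 without LPS 1). Sh3bp1 and Rhog rose by 0.77 and 0.69 on the log2 scale (adjusted p = 0.00426 and 0.00161), and Rhog by 0.27 under the length offset (adjusted p = 0.0213). Actn1, alpha-actinin 1, stood at 1504 ± 52.7 and 1303 ± 138 CPM without a call (adjusted p = 0.124), and passed as lower without LPS 1 (0.00903).

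The list of 8 genes for sheddases, which cut adhesion molecules off the membrane, their regulators and their inhibitor had 1 higher and 4 lower, or 2 and 2 with the length offset. The 4 were Adam10, Adam17, the regulator gene Rhbdf2 and the inhibitor gene Timp3. Timp3, a tissue inhibitor of ADAM proteases, fell from 2378 ± 212 to 713 ± 380.0 CPM (−1.74 on the log2 scale, SE 0.309, edgeR adjusted p = 0.00206; −1.49 with the offset). Adam10, a sheddase, fell by 0.87 on the log2 scale (adjusted p = 0.00144), or by 0.62 with the offset. Rhbdf2, a partner of the sheddase ADAM17, fell by 0.35 (adjusted p = 0.0449), a call that ended with the offset (0.158) and without Vehicle 1 (0.149), Vehicle 2 (0.0854), Vehicle 3 (0.0917), LPS 2 (0.153) or LPS 3 (0.0649). Without any 1 of those libraries 0 genes of the list were higher and 2 lower. The protease gene Mmp14 stood at 389 ± 11.8 and 393 ± 15.9 CPM (adjusted p = 0.899).

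All 12 genes for transcription factors known to act on adhesion genes were tested, and 3 rose and 3 fell, or 3 and 2 with the length offset. Cebpb rose from 94.6 ± 9.80 to 159 ± 19.0 CPM (log2 fold change 0.75, edgeR adjusted p = 0.00144; 0.38 with the length offset). Sp1, with a transcript of 7754 bases, fell by 0.98 on the log2 scale (adjusted p = 0.00144), or by 0.38 with the offset. Erg, an endothelial ETS factor, fell from 8.29 ± 0.973 to 5.47 ± 0.857 CPM (adjusted p = 0.0205), a call that ended without Vehicle 1 (0.0848), Vehicle 2 (0.0539) or LPS 3 (0.0629), each of which left 1 of these genes lower. Rela, the kappa B subunit p65, stood at 79.7 ± 9.06 and 93.8 ± 3.51 CPM without a call (adjusted p = 0.0766), and passed as higher with the replicate block (0.0445) and without LPS 1 (0.0205). The LPS receptor gene Tlr4 was present in every library and fell by 0.85 on the log2 scale, from 40.4 ± 2.09 to 22.4 ± 2.93 CPM (adjusted p = 0.00144).

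**Figure D5:**
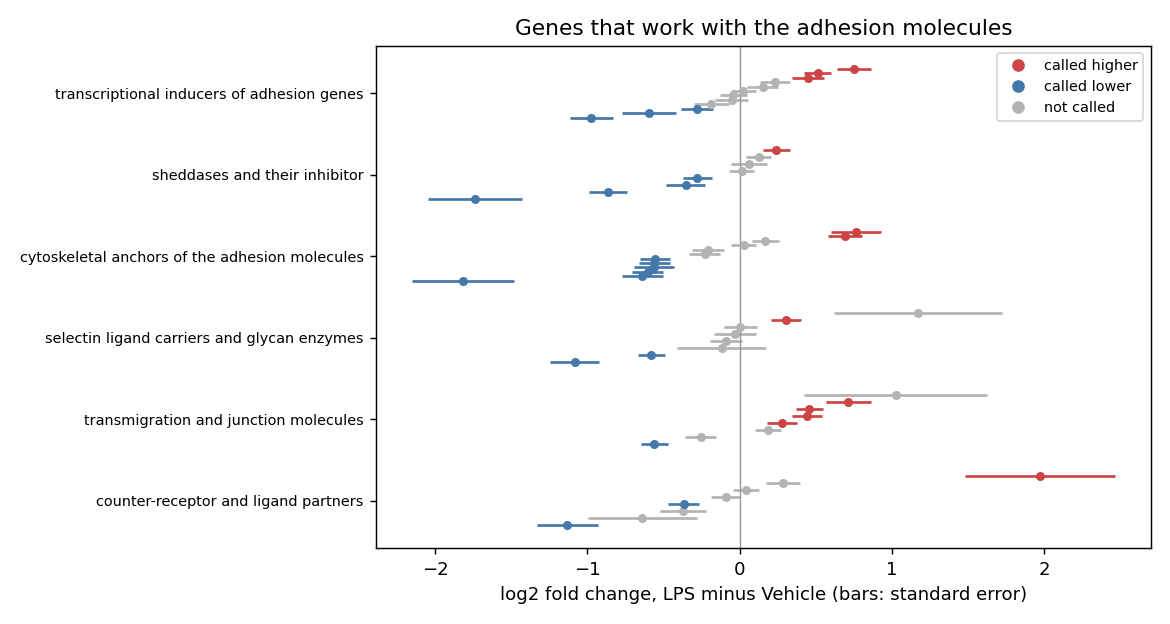
Log2 fold change under LPS with its standard error for the 56 tested genes of 6 lists, red for called higher, blue for called lower and grey for not called. Each list holds genes on both sides of 0, with Vcl and Timp3 lowest at −1.82 and −1.74 and Itgb7 highest at 1.97.

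Over the 6 libraries, the tested genes whose log2 CPM followed Vcam1 most closely were Mmp3, Gch1 and Procr, with Pearson r of 0.9996, 0.999 and 0.9989. For Selp they were Aco1, Prkaca and Zwilch, at 0.9991, 0.9978 and 0.9977. These are descriptions without a test, since the libraries form 2 groups and share them: 1358 genes reached an r of 0.95 with Vcam1 and 1035 with Selp.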

How the data were processed

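Bulk RNA was measured in 6 libraries, 3 per group. The deposited values are raw, whole-number counts for each gene beside its length, per the file headers. The submitters' processing notes name HISAT2, GRCm38 and mm10. How reads were counted, on which strand and with which annotation is not given in the sources used here, so where genes overlap their reads may be mixed. Columns M1 to M3 without a treatment in their names were taken as Vehicle by elimination.

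From the counts, CPM with TMM-scaled library sizes were computed, and the test between Vehicle and LPS was that of edgeR 4.0.16 under R 4.3.3 (filterByExpr by group, 2-sided quasi-likelihood F-test, Benjamini-Hochberg adjustment over 14508 genes). Standard errors are the log2 fold change over the square root of F. RPKM divides CPM by the deposited length. Alternatives were DESeq2 1.42.0, its size factors, limma-voom (limma 3.58.1), library sizes alone, other filters, leaving out libraries or isolations, the isolation as a replicate block, and a length offset. The offset is a natural spline with 5 degrees of freedom of log2 deviations over log2 length of the longest GENCODE M21 transcript (99.77% of gene IDs matched), or over the deposited length. By the labels, libraries with the same number come from 1 cell isolation, which pairs them. Deviations of paired libraries correlated across genes at 0.0958, −0.0450 and 0.206. Those of unpaired libraries ran from −0.231 to 0.137, so the pairing rests on the labels and not on these values. The scripts were tested on simulated counts. Members, lists, motifs and settings were chosen with earlier results of these data known. All members are named; of each list, up to 3 called genes with the largest fold change and the most abundant gene per length without a call are named, with the 3 genes most correlated with Vcam1 and with Selp, and Tlr4. Cd44, Sirpa, Itgal, Itgam, Cd9, Nectin2, Adam17, Smtn, Lmod1, Myh11, Des, Notch3, Pdgfra and the genes overlapping Selp fall outside that rule and were chosen after their values were seen. Of each marker list the rule takes the most abundant gene: Flt1, Acta2, Rgs5, Col1a1, Csf1r, Cd79a, Itga2b, Krt19 and Flt4. Other endothelial markers and Pf4 are named for the check of the label. Macrophage, lymphocyte, mesothelial, lymphatic and smooth muscle marker lists summed to at most 7.63, 0.375, 89.4, 10.5 and 583 CPM in any library.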

Additional observations from a re-analysis of the deposited data

How the results depend on the processing

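Vcam1 was called higher under every setting run except edgeR without isolation 2, at log2 fold changes of 0.49 to 0.56 over the fits that leave out libraries. The size of its change depended on other settings. It was 0.45 with library sizes alone, 0.69 with the length offset and 0.95 with the deposited length offset. The members called numbered 1 higher and 3 lower. Without the low-count filter 2 were higher (Madcam1 added, in a fit whose adjusted p are not comparable with the main fit). With the length offset and replicate block 2 were higher (Alcam added). Over the fits that leave out libraries there were 0 to 1 higher and 0 to 3 lower. Without isolation 2, 1 was lower with the replicate block and 0 in DESeq2.

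Sele ranged from −0.60 to −0.27 and Selp from −0.56 to −0.30 when libraries were left out; their calls ended in DESeq2 without isolation 2 (−0.47 and −0.39), and for Selp with the replicate block without isolation 2 (−0.42). Cd47 ranged from −0.27 to −0.17. Its call ended with DESeq2 size factors (−0.21, adjusted p = 0.0522), without the filter (−0.23, 0.124), with the replicate block (−0.22, 0.0548), and without isolation 2 in the replicate block (−0.17) and in DESeq2 (−0.17). Its sign changed with the length offset (0.15), the deposited length offset (0.0195) and the length offset with replicate block (0.15). Alcam ranged from −0.28 to −0.099 and changed sign under the same settings (0.30, 0.14 and 0.29). Icam1 ranged from −0.039 to 0.32, Mcam from −0.22 to 0.13 and F11r from −0.053 to 0.028, and the cause of these changes was not tested.

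The replicate block called 1 member higher and 2 lower and ended no other call of a member than that of Cd47. The pathway genes called, 12 higher and 18 lower, came to 0 to 15 and 0 to 22 over the fits that leave out libraries. Without isolation 2 the block gave 7 higher and DESeq2 4 higher and 9 lower. All called genes, 3616 higher and 3534 lower, came to 8 to 4362 and 0 to 4463. Without isolation 2 the block gave 2322 and 2296 and DESeq2 1543 and 1259, and the length offset, the deposited length offset and the length offset with replicate block gave 1996, 2339 and 2264 lower. Members called between isolations numbered 0, or 0 to 5 when libraries were left out. Signs also changed for genes without a call. Cd151 came to −0.095 with the length offset and −0.095 with the block added, Thbs1 to 0.057 and 0.058, and Podxl to 0.29, 0.30 and, with the deposited length, 0.071. Mmp14 was −0.061 with library sizes alone, −0.012 to 0.060 with libraries left out, and without isolation 2 −0.012 in the block and −0.0051 in DESeq2. The block and DESeq2 without isolation 2, and the test between isolations with libraries left out, were added after seeing the data. Depth limits Icam2 and Madcam1, which stayed under 1 CPM.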

Other observations

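Adhesion genes that neighbour Icam1 were rare. Beside Icam1 on chromosome 9, Icam4 had 0 counts in all 6 libraries. Icam5, an ICAM known from neurons, stood at 5.38 ± 0.393 CPM in Vehicle and 5.01 ± 0.958 CPM under LPS (SD, n = 3 each; log2 fold change −0.10, edgeR adjusted p = 0.686). These genes were chosen for their position, after the values of the members were seen.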
